A study of Mus musculus with 16 samples.

Results

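Prostaglandins are lipid messengers that cells make on demand from arachidonic acid, and 8 genes of their synthesis are described here across the cell types of the mouse hypothalamus and preoptic area. The genes were Ptgs1, Ptgs2, Ptgds, Hpgds, Ptges, Ptges3, Ptgis and Tbxas1, chosen by symbol from 28683 symbols counted in the series, and all 8 were listed in all 16 libraries. Single cells were profiled by Drop-seq, in which droplets pair each cell with a barcoded bead and each captured mRNA is counted once by its unique molecular identifier (UMI), with 1 female mouse per library on a CD-1;129P2 mixed background. Wild-type mice, which were Cre-negative littermates, received oil (n = 3) or tamoxifen (n = 5), and Esr1 cKO mice, Esr1 F/F carrying the Nkx2-1Cre transgene, received oil (n = 4) or tamoxifen (n = 4). Tamoxifen, which binds estrogen receptor alpha (ERα, encoded by Esr1), was given subcutaneously at 0.1 mg/kg in 28 daily injections to mice that were 8 to 10 weeks old at the start, oil being the vehicle, and tissue was taken 2 hours after the last injection. Cre came from a BAC transgene active in the Nkx2-1 lineage, which covers part of the dissected tissue, so cells outside that lineage kept Esr1 in Esr1 cKO mice.

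Cyclooxygenases start the pathway: Ptgs1 encodes COX-1, made constitutively in many cells, and Ptgs2 encodes COX-2, which stimuli such as inflammation and neuronal activity induce. Both turn arachidonic acid into prostaglandin H2, which terminal synthases convert further, Ptgds and Hpgds to prostaglandin D2, Ptges and Ptges3 to prostaglandin E2, Ptgis to prostacyclin and Tbxas1 to thromboxane A2. In the hypothalamus and preoptic area, prostaglandin D2 is known for promoting sleep, and prostaglandin E2 for driving fever and, in development, for masculinizing the preoptic area.

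The promoters of 3 members are shown because these were the genes whose transcripts were found mainly in microglia. RefSeq promoter sequences of the GRCm38.p6 build, from 250 bases before to 50 bases after the start of the gene, matched 7 of the 8 members, Ptgis not among them. Capitals mark the letters GAGGAAGT, which the myeloid factor PU.1 is known to bind, searched on both strands. The Ptgs1 promoter lies at chr2:36230176-36230475 on the plus strand, that of Hpgds at chr6:65144681-65144980 on the minus strand and that of Tbxas1 at chr6:38918736-38919035 on the plus strand.
Ptgs1: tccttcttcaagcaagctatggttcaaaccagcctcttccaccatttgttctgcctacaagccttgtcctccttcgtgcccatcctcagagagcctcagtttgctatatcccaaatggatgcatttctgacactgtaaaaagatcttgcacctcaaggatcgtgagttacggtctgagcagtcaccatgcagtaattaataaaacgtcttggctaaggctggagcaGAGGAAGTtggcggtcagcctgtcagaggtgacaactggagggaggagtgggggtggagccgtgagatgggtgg
Hpgds: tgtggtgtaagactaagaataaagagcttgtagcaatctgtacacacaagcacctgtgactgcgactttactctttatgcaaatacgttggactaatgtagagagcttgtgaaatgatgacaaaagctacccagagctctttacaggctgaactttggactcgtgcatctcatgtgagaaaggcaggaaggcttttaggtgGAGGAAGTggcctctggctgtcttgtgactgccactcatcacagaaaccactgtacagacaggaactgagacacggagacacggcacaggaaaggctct
Tbxas1: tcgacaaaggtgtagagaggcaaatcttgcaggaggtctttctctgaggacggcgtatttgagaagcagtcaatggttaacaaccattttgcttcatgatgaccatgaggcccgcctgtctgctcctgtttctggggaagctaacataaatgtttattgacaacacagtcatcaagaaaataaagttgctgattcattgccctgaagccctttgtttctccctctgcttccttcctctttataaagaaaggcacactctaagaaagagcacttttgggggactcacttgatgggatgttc
The RefSeq starts of Ptgs1 and Ptgs2 are those of the gene models given below, whereas the other 5 lie inside the span of their gene model, close to its start for Ptges3, Hpgds and Ptgds and far from it for Tbxas1 and Ptges, so the windows of the latter pair are not at the outermost start. The letters began 24 bases before the start of Ptgs1 and 49 bases before that of Hpgds, both on the strand of the gene, and were not in the windows of Tbxas1 or the other 4 members. They were in 3.20% of all 32851 promoters of this length. The estrogen response element, GGTCA and TGACC spaced by 3 bases, was in none of the 7 windows and in 0.0700% of all promoters. A match of letters is a description of the sequence, not a binding site, and a window without them says nothing of the factor.

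The members lie on 4 chromosomes in the mm10 gene models of GENCODE vM21. Ptgds (chr2:25466709-25470046), Ptges (chr2:30889471-30929863), Ptgs1 (chr2:36230426-36252272) and Ptgis (chr2:167191805-167240604) are on chromosome 2, and Hpgds (chr6:65117293-65144908) and Tbxas1 (chr6:38875404-39084585) are on chromosome 6. Ptgs2 is at chr1:150100031-150108227 and Ptges3 at chr10:128058954-128077272. Tbxas1 is by far the longest of them, with 200088 intronic bases.

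After the study's cell filter 55675 cells remained, 1746 to 5568 per library, at a median of 677 UMIs per cell. Clustering with the members and 21 related genes left out of the variable genes gave 9 classes, and each class name used here means cells that resemble the type by its markers. The glia were astrocytes (13562 cells), oligodendrocytes (9214), their precursors the polydendrocytes (4450) and microglia (5401). Neurons numbered 9142, ependymal cells 3191, and the vascular and meningeal classes were endothelial cells (7197), fibroblasts (966) and mural cells (2358), with 194 cells led by Tshb and Bpifa1 left unnamed. Every class had its own marker list detected, 6 of 7 genes for polydendrocytes and all genes for the others. By the same measure the endothelial class also had 6 of the 8 mural markers, so mural RNA or cells may be part of its levels. Replicate 3 of wild-type oil and replicate 3 of Esr1 cKO tamoxifen stood apart from the other 14 libraries on the first principal component of the library sums (144 and 141, against -50.7 to -3.20), and their Tbxas1 levels in all kept cells (12.7 and 8.45 CPM, UMIs of the gene per 1000000 UMIs of the cells summed) lay under the 20.6 to 43.4 CPM of the others. Ptgis in neurons was lowest in the same libraries (1.02 and 0.923 CPM, against 5.72 to 27.8 CPM in the others). Their deposited counts begin at barcodes with 100 genes, those of the other 14 at 20 genes. Cell barcodes that occurred in more than 1 library were carried by 1717 cells (3.08%). Shared barcodes were found in 85 of the 120 pairs of libraries, with 359 in the pair that shared most. Why they were shared was not tested. Esr1 itself measured 44.1 to 86.5 CPM in the neurons of wild-type mice and 17.1 to 73.9 CPM in those of Esr1 cKO mice, but tags counted at the 3′ end need not fall in the deleted part and so do not check the deletion. The lowest Esr1 value of each genotype came from the libraries that stood apart. Without them the ranges began at 49.6 CPM in wild-type and 41.5 CPM in Esr1 cKO mice.

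**Figure D1:**
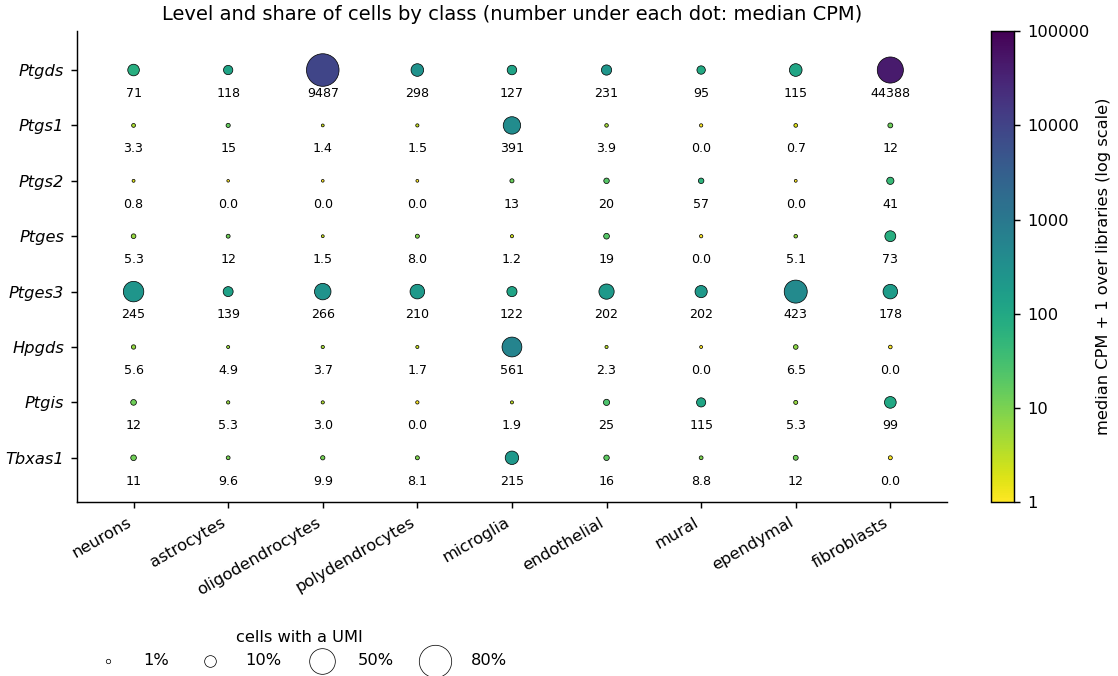
Levels of the 8 members (rows) in the 9 cell classes (columns): the color and the printed number give the median CPM over 16 libraries, and dot size gives the percent of cells with at least 1 UMI. Hpgds, Ptgs1 and Tbxas1 are highest in microglia, Ptgds in fibroblasts and oligodendrocytes, Ptgis and Ptgs2 in mural cells, Ptges in fibroblasts and Ptges3 in ependymal cells.

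To ask which cells carry the start of the pathway, levels of both cyclooxygenases were compared between classes. Ptgs1 transcripts were found chiefly in microglia, the resident macrophages of the brain, which held 1597 of its 1897 UMIs (84.2%). Its level in microglia over the 16 libraries was lowest at 290, 391 at the median and highest at 508 CPM, and 22.8% of microglia had a UMI (95% exact Clopper-Pearson interval 21.7 to 23.9%, for counting error only; 16.3% when cells were thinned to 500 UMIs, against 0.0574% of oligodendrocytes, the median depths before thinning being 615 and 753 UMIs). Next came astrocytes at a median of 14.5 CPM (2.73 to 25.2) and fibroblasts at 12.1 CPM, and every other class was at or under 3.92 CPM at the median. Thinned in the same way, 0.755% of astrocytes had a UMI. Astrocytes and microglia did not overlap, microglia being higher in 16 of 16 libraries (exact sign-flip permutation test, adjusted p = 0.000279 over 64 pairs of neighbouring classes), while astrocytes and fibroblasts did not pass this test (adjusted p = 0.958). Barcodes with 100 to 200 genes, too poor to be kept as cells, carried 9.62 to 105 CPM of Ptgs1, so levels outside microglia are not read as expression. Such barcodes may include damaged cells, so a level within their range, here and below, does not show absence either. Against all other cells of the same library, Ptgs1 was higher in microglia by 6.58 ± 0.11 on the log2 scale (SE, edgeR quasi-likelihood test, adjusted p = 5.37e-43). It was lower in each of the other 8 classes, but the cells they are compared with include the microglia, so this is no separate result.

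Ptgs2 was scarce, with 412 UMIs in all kept cells, and its order of classes was far less sharp. Endothelial cells, which line the vessels, held 189 of them (45.9%), mural cells 79, microglia 56 and fibroblasts 50, while the 13562 astrocytes held 3. Its median level was 57.0 CPM in mural cells (0 to 134), 40.9 CPM in fibroblasts (0 to 87.7), 20.1 CPM in endothelial cells (3.55 to 93.3), 12.7 CPM in microglia (0 to 35.3) and 0.837 CPM in neurons (0 to 2.44). The ranges of the first 4 overlapped and no neighbours among them passed the sign-flip test (adjusted p = 0.288, 0.288 and 0.368), whereas microglia stood above neurons in 15 of 16 libraries (adjusted p = 0.000391). The barcodes too poor to be kept carried 0 to 28.5 CPM of Ptgs2 (6 UMIs at the highest), a range that holds the endothelial and microglial medians. Because so few UMIs were counted, Ptgs2 passed the filter on low counts in no test of a class against all other cells. Without that filter edgeR gave it higher levels than all other cells in mural cells (3.14 ± 0.25 on the log2 scale, adjusted p = 8.40e-19), fibroblasts (2.59 ± 0.30), endothelial cells (2.31 ± 0.20) and microglia (1.30 ± 0.29). Neurons, in which Ptgs2 is known as an activity-induced gene, had 17 UMIs in 9142 cells.

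Within endothelial cells, 104 of the 189 Ptgs2 UMIs came from 1254 cells led by Lcn2, Darc and Il1r1, genes of venous and inflamed endothelium, of which 5.26% had a UMI and whose median level was 36.9 CPM. Each of the other endothelial subclusters held at most 23 UMIs. Within mural cells, the contractile and supporting cells of the vessel wall, 63 of the 79 Ptgs2 UMIs came from 389 smooth muscle-like cells led by the immediate early genes Maff and Nr4a1 (median 159 CPM, 8.23% of cells), and the other 16 came from a smooth muscle-like subcluster of 606 cells led by Pmch and by microglial and oligodendrocyte genes. Pericyte-like cells held none in 821 cells, which allows up to 0.365% of cells and 8.37 CPM. Set against that limit, 79 UMIs in 1537 smooth muscle-like cells were at least 8.56-fold higher, and at least 10.99-fold higher in the 931 cells without the Pmch-led subcluster. Outside the Maff-led and Pmch-led cells, smooth muscle-like cells held none either. The latter fold is therefore that of the Maff-led cells, not of smooth muscle-like cells as a whole.

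The terminal enzymes fell into different classes, as a test of each class against all other cells of its library shows. Of 56 comparisons of a member and a class, 13 were higher and 40 lower at an adjusted p under 0.05 (edgeR), while over all genes and classes 29.6% of comparisons were higher and 38.5% lower. The median log2 difference was -1.29 for the members and -0.20 for the 14 related pathway genes tested, of which 28 of 100 comparisons were higher and 37 lower. A class is compared with cells that include the class holding most of a gene's UMIs, so lower calls largely follow from the higher ones. With this many genes called, a class difference as such is common, and the members are described below by where and how far they differed.

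Ptgds encodes lipocalin-type prostaglandin D synthase, a secreted protein of the meninges and of myelinating glia. It was the most abundant member by UMIs, with 135768 in all kept cells, and oligodendrocytes, the myelinating cells, held 83438 of them (61.5%) while the 966 fibroblasts held 44412 (32.7%). Together these classes gave 90.7 to 97.0% of the Ptgds UMIs of each library. Its level in fibroblasts was lowest at 9027, 44388 at the median and highest at 84408 CPM, in oligodendrocytes 6046, 9487 and 14095 CPM, and in polydendrocytes 189, 298 and 374 CPM. As whole classes, fibroblasts were higher than oligodendrocytes, and oligodendrocytes than polydendrocytes, in 16 of 16 libraries (both adjusted p = 0.000279). Oligodendrocytes and polydendrocytes did not overlap, whereas the lowest fibroblast value lay within the range of oligodendrocytes.

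Below these, endothelial cells (median 231 CPM), microglia (127), astrocytes (118), ependymal cells (115), mural cells (95.4) and neurons (71.3) followed with overlapping ranges. No neighbours in this order, polydendrocytes included, passed the sign-flip test (adjusted p from 0.0550 to 0.936). Against all other cells Ptgds was higher in fibroblasts by 4.68 ± 0.10 and in oligodendrocytes by 3.72 ± 0.13 on the log2 scale (edgeR, adjusted p = 1.81e-99 and 4.77e-24). It was lower in the other 7 classes, each set against cells that include fibroblasts and oligodendrocytes, with log2 differences from -5.17 in neurons to -3.11 in polydendrocytes. A UMI was found in 80.9% of oligodendrocytes (95% exact interval 80.05 to 81.66%; 76.4% when thinned) and 51.8% of fibroblasts (48.7% when thinned). In the remaining classes the thinned share ran from 2.96% in neurons (9.81% before thinning, at a median of 1489 UMIs per cell) to 7.39% in polydendrocytes. The barcodes too poor to be kept as cells carried 568 to 4587 CPM of Ptgds, and these low shares are not read as expression. Whether free RNA or damaged cells gave the Ptgds of those barcodes was not tested. Of 897 neurons with a UMI, 741 had 1 UMI, 121 had 2 to 4 and 35 had 5 or more.

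**Figure D2:**
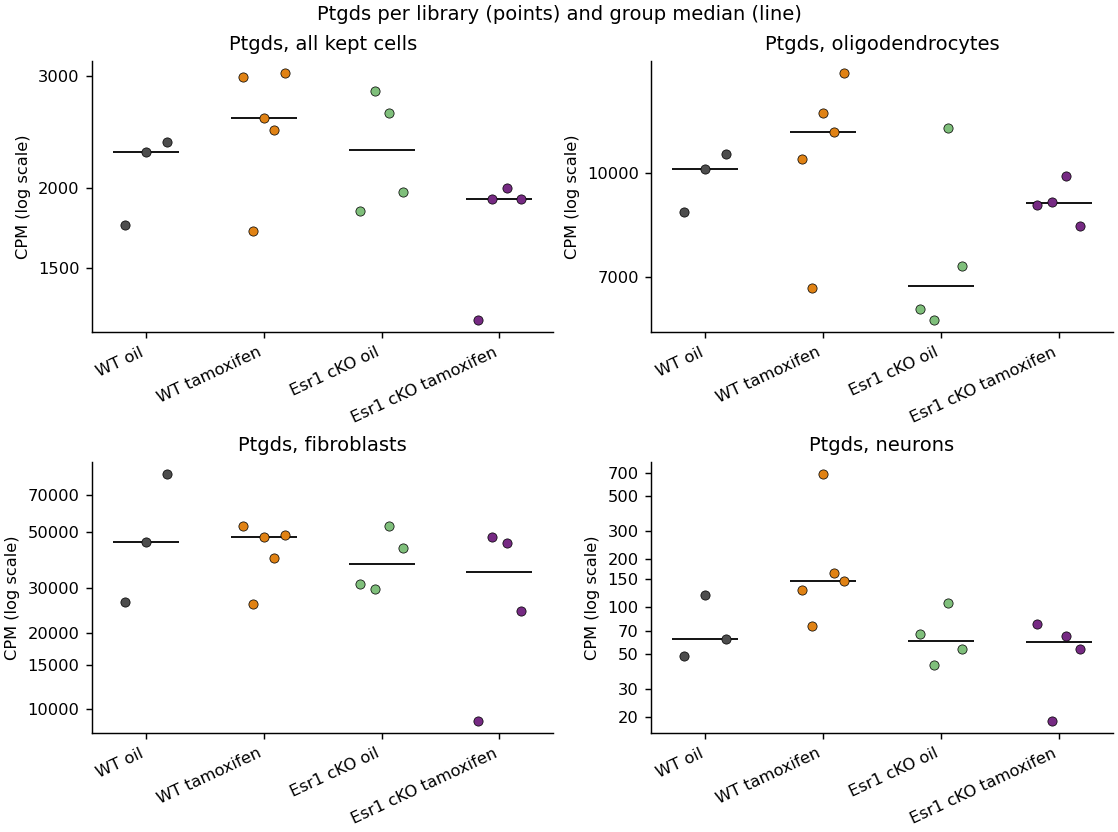
Ptgds in each library (points, CPM on a log axis) by group, with the group median as a line, for all kept cells, oligodendrocytes, fibroblasts and neurons. The 4 groups overlap in every panel, and wild-type tamoxifen replicate 3 stands at 688 CPM in neurons.

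Most of the fibroblast signal came from a small subcluster. Some 230 cells led by Serpind1 and Slc13a3, 0.413% of all kept cells, held 38642 Ptgds UMIs, which were 28.5% of those in all cells and 87.0% of those in fibroblasts. Ptgds made up 11.6% of all UMIs in these cells, and its level ran from 53580 to 186803 CPM with a median of 117501 CPM over libraries. The subcluster reached no marker list's threshold for naming and is left unnamed. The 481 cells named fibroblast-like as a subtype held 1645 Ptgds UMIs. Their median over libraries was 2697 CPM (461 to 31811), against 9691 CPM (6230 to 14627) in oligodendrocyte-like cells. The order of fibroblasts and oligodendrocytes given above is that of whole classes and was not tested without the Serpind1-led cells. It is not an order of fibroblast-like cells, whose median lay under that of oligodendrocyte-like cells. Fibroblasts led by Lama1 and Fbln2 had a median of 9896 CPM (1168 to 36564), those led by Nov and Prg4 7980 CPM (4702 to 22303) and those led by Inmt and Cygb 108 CPM (0 to 597), each over libraries with at least 5 such cells. In these libraries the Serpind1-led cells did not overlap with any of the other 3, and the Inmt-led cells lay below them all. A further library, wild-type oil replicate 3, had 3 Inmt-led cells with 88 Ptgds UMIs. The medians of the fibroblast-like and the Inmt-led cells lie within and under the range of the barcodes too poor to be kept. Markers of oligodendrocytes, 9 of 9 detected, made up 0.135% of the UMIs of fibroblasts, against 10.6% in oligodendrocytes and 0.124 to 0.134% in microglia, endothelial cells, mural cells and astrocytes. The Serpind1-led cells made up 8.20 to 47.3% of the fibroblasts of a library, 4 to 35 cells.

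Oligodendrocytes were also unequal. The 2634 cells led by Adamts1 and Il33 had a median Ptgds level of 15716 CPM (9739 to 22635) with a UMI in 97.9% of cells, and the 2978 led by Sesn1 had 11018 CPM (7158 to 14270). The 1165 cells led by Anln and Hapln2 had 4527 CPM (2045 to 8614), and the 599 led by Klk6 and Hopx 136 CPM (25.8 to 4834) with a UMI in 12.5%. The Il33-led and Klk6-led cells did not overlap between libraries although both carried the oligodendrocyte markers. The Anln-led and Klk6-led medians lie within and under the range of the barcodes too poor to be kept. In the precursor lineage, 363 cells led by Enpp6, a gene of newly formed oligodendrocytes, had 797 CPM against 113 CPM in 4059 Pdgfra-positive precursor-like cells, a difference of 2.76 ± 0.14 on the log2 scale (edgeR, adjusted p = 7.20e-27), and genes of myelin, Cldn11, Mag and Cnp, were among their 10 leading genes as well. Both levels lie within or under the range of the barcodes too poor to be kept.

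**Figure D3:**
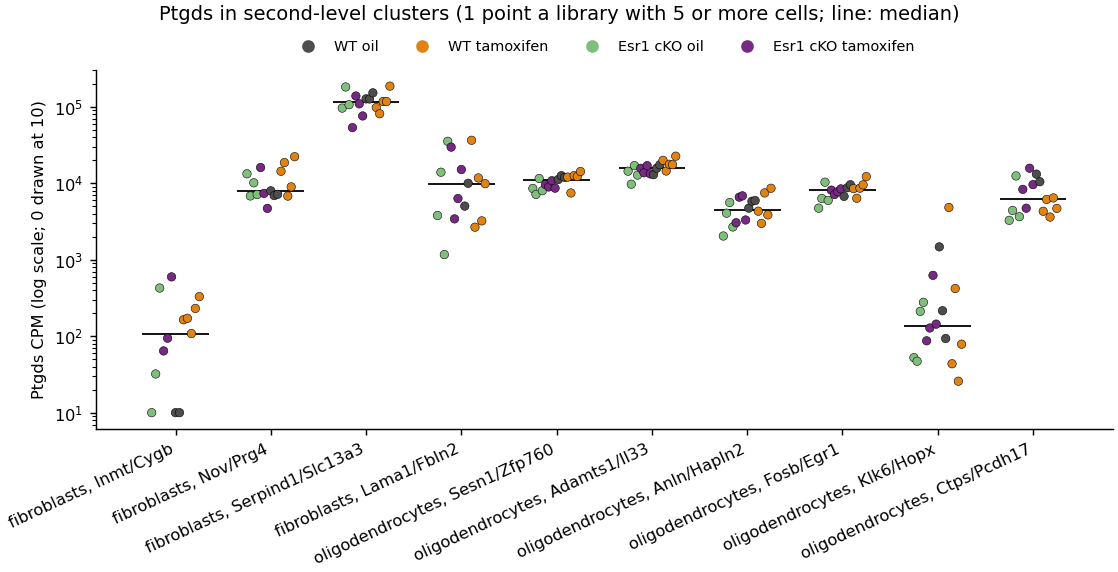
Ptgds level per library (points, CPM on a log axis, 0 drawn at 10) in the 4 subclusters of fibroblasts and 6 of oligodendrocytes, each labelled by its 2 leading genes and shown for libraries with at least 5 of its cells. Serpind1-led cells of the fibroblast class are highest at a median of 117501 CPM, and Klk6-led oligodendrocytes (136 CPM) and Inmt-led fibroblasts (108 CPM) are lowest.

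Hpgds encodes the hematopoietic prostaglandin D synthase, the other route to prostaglandin D2. Microglia held 2256 of its 2511 UMIs (89.8%), at a lowest level of 499, a median of 561 and a highest of 685 CPM, and 29.6% of microglia had a UMI (22.9% when thinned, against 0.186% of oligodendrocytes). The next class, ependymal cells, had a median of 6.51 CPM (0 to 21.98), fibroblasts and mural cells had a median of 0, and microglia were higher in 16 of 16 libraries (adjusted p = 0.000279). Barcodes too poor to be kept carried 6.31 to 104 CPM, so the levels outside microglia are not read as expression. Against all other cells Hpgds was higher in microglia by 7.30 ± 0.11 on the log2 scale (edgeR, adjusted p = 1.50e-45). It was lower in each of the other 8 classes, which are set against cells that include the microglia. Ptgds, the other synthase of prostaglandin D2, was at 127 CPM (37.1 to 355) in microglia, among the levels above that were not read as expression.

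Tbxas1 encodes thromboxane A synthase. Its level in microglia was lowest at 154, 215 at the median and highest at 290 CPM, and microglia held 885 of its 1474 UMIs (60.0%), with a UMI in 13.3% of cells (9.81% when thinned, against 0.473% of oligodendrocytes). Endothelial cells were next at 16.3 CPM (2.43 to 37.3), below microglia in 16 of 16 libraries (sign-flip test, adjusted p = 0.000279). The remaining classes ran from 11.7 CPM in ependymal cells to 0 in fibroblasts with no neighbours that passed this test. Barcodes too poor to be kept carried 0 to 56.1 CPM, so the levels outside microglia are not read as expression. The log2 difference of microglia from all other cells was 4.75 ± 0.16 (edgeR, adjusted p = 2.37e-30). The other 8 classes were lower, each set against cells that include the microglia.

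Within the microglial class, the levels of these 3 genes varied between subclusters. Ptgs1 had a median of 498 CPM in the 1908 cells led by Sgk1, 372 CPM in the 1228 led by the inflammatory genes Tnf and Il12b and 363 CPM in the 59 led by the proliferation genes Mki67 and Top2a, and the ranges over libraries overlapped. Hpgds had 678, 575 and 182 CPM in these cells, and its range in the Mki67-led cells (0 to 444 CPM) did not overlap those of the other 2. With only 59 Mki67-led cells in all libraries together, that range rests on few cells per library. The separation was not tested and is not read as a difference. Perivascular macrophage-like cells (509 cells led by Pf4, Mrc1 and Lyve1) had less Ptgs1 than microglia-like cells (4402 cells), 157 against 444 CPM at the median and a log2 difference of -1.59 ± 0.20 (edgeR, adjusted p = 4.93e-10), and less Hpgds, 387 against 637 CPM and -0.79 ± 0.14 (adjusted p = 2.41e-06). Tbxas1 measured 289 against 218 CPM, a log2 difference of 0.30 ± 0.16 that missed the threshold (adjusted p = 0.104). Members were tested in 4 of the pairs of subtypes compared, and of their 8 comparisons 2 were higher and 3 lower in the first of the pair, against 26.2% higher and 26.3% lower over all genes and pairs. Hpgd, which degrades prostaglandins and belongs to the related pathway genes, was higher in perivascular macrophage-like cells by 1.119 ± 0.183 (adjusted p = 5.05e-07). A further 298 cells led by the neutrophil genes S100a8 and S100a9 had 84.4 CPM of Hpgds and a median of 0 for both Ptgs1 and Tbxas1.

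Ptges encodes the inducible microsomal synthase of prostaglandin E2, and its level was highest in fibroblasts, at low counts. The 966 fibroblasts held 89 of its 560 UMIs (15.9%), fewer than the larger classes of endothelial cells (27.1%), neurons (20.9%) and astrocytes (18.2%). Its level in fibroblasts was lowest at 23.4, 72.7 at the median and highest at 198 CPM, with a UMI in 8.59% of cells (4.09% when thinned, against 0.0717% of oligodendrocytes, the median depths before thinning being 759 and 753 UMIs). The thinned share was 0.783% in endothelial cells, whose median depth before thinning was 732 UMIs. Endothelial cells followed at 19.5 CPM (8.53 to 29.8), astrocytes at 11.5 CPM (7.43 to 22.5) and polydendrocytes at 8.02 CPM (0 to 19.5), and each of these 3 steps passed the test (adjusted p = 0.000279, 0.0119 and 0.0267) though the ranges overlapped. Barcodes too poor to be kept carried 0 to 42.1 CPM of Ptges (6 UMIs at the highest), so the levels outside fibroblasts are not read as expression. The log2 difference from all other cells was 3.36 ± 0.24 in fibroblasts (edgeR, adjusted p = 1.71e-28), 1.45 ± 0.16 in endothelial cells and 0.67 ± 0.16 in astrocytes, and Ptges was lower in neurons (-0.84 ± 0.14) and ependymal cells (-1.41 ± 0.38). Within fibroblasts its median level was 94.1 CPM in the Inmt-led, 76.5 CPM in the Nov-led and 0 in the Serpind1-led cells, which held 7 Ptges UMIs.

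Ptges3, which encodes p23, a cochaperone of Hsp90 that also has prostaglandin E synthase activity, was the only one of the 8 with over 100 CPM at the median in every class. Ependymal cells, which line the ventricles, had the highest level, 283 at the lowest, 423 at the median and 539 CPM at the highest, and microglia had the lowest, 67.6, 122 and 151 CPM. These 2 classes did not overlap. For Ptges3 the barcodes too poor to be kept carried 85.6 to 180 CPM. That range holds the medians of microglia, astrocytes (139 CPM) and fibroblasts (178 CPM). The levels in these classes are therefore not read as expression, nor as its absence, because those barcodes may include damaged cells. Ependymal cells were above oligodendrocytes (266 CPM) in 15 of 16 libraries (adjusted p = 0.000391), oligodendrocytes above neurons (245 CPM; adjusted p = 0.0414) and neurons above polydendrocytes (210 CPM; adjusted p = 0.0126). Against all other cells the log2 difference was 1.08 ± 0.07 in ependymal cells and 0.70 ± 0.05 in oligodendrocytes (edgeR, adjusted p = 1.54e-14 and 2.54e-14), while neurons (0.09 ± 0.04, adjusted p = 0.0640), endothelial cells (-0.02 ± 0.06, adjusted p = 0.779) and mural cells (-0.22 ± 0.12, adjusted p = 0.126) did not pass. The 1224 tanycyte-like ependymal cells, which border the third ventricle, had 284 CPM against 530 CPM in 1852 ciliated-like cells, a log2 difference of -0.96 ± 0.10 (adjusted p = 6.48e-12), and -1.05 ± 0.10 without the 731 of the latter that the choroid plexus genes Ttr and Htr2c led (adjusted p = 3.12e-13). Ptgds was higher in tanycyte-like than in ciliated-like cells, 152 against 63.2 CPM and 0.72 ± 0.22 on the log2 scale (adjusted p = 0.00418), and without those 731 cells it missed the filter on low counts. Both Ptgds levels lie under that of Ptgds in the barcodes too poor to be kept, so this difference is not read as one of expression.

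Ptgis encodes prostacyclin synthase, an enzyme of vessel walls. Its level in mural cells was lowest at 0, 115 at the median and highest at 327 CPM, and in fibroblasts 48.3, 98.7 and 306 CPM. These 2 classes did not pass the sign-flip test (adjusted p = 0.993). Fibroblasts were above endothelial cells (25.3 CPM, 16.6 to 38.8) in 16 of 16 libraries without overlap, and endothelial cells above neurons (11.7 CPM) in 15 of 16 (adjusted p = 0.000279 and 0.000533). Barcodes too poor to be kept carried 0 to 28.4 CPM (3 UMIs at the highest), a range that holds the endothelial and neuronal medians. The log2 differences from all other cells were 3.39 ± 0.21 in fibroblasts, 3.36 ± 0.18 in mural cells and 1.33 ± 0.14 in endothelial cells (edgeR, adjusted p = 4.07e-35, 4.35e-80 and 4.28e-10).

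All 178 mural Ptgis UMIs came from smooth muscle-like cells, 95 of them from the 389 Maff-led cells (median 236 CPM, 18.3% of cells). Pericyte-like cells held none, so smooth muscle-like cells were at least 19.3-fold higher than the limit of 8.37 CPM, and at least 22.7-fold higher without the Pmch-led subcluster. In fibroblasts, 101 of 149 UMIs came from the Nov-led cells (152 CPM, 23.5% of cells). In endothelial cells, 82 UMIs came from cells that also led with the smooth muscle genes Acta2 and Myh11, and 51 from cells led by Cytl1 and Fbln5, genes of arterial endothelium. The 4219 cells named endothelial-like as a subtype had a median of 11.9 CPM (4.11 to 32.0) on 45 UMIs. Arterial endothelial-like cells (730) had 70.4 CPM (0 to 135) on 66 UMIs. The endothelial Ptgis level and differences given above are those of the whole class. The part of mural RNA in the endothelial level was not tested.

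The genes whose pattern over 144 sums of a library and a class was most like each member were found by Pearson's r of log2(CPM + 10) among 16622 genes, as a description in which sums of the same library and class share cells. They were Thbs2 (r = 0.909) and Apod (0.890) for Ptgds, Il1a for both Ptgs1 (0.923) and Hpgds (0.965), Ptprc (0.900) for Tbxas1, Tbx18 (0.929) for Ptgis, Col1a1 (0.816) for Ptges, Hsp90aa1 (0.772) for Ptges3 and Ifitm2 (0.725) for Ptgs2.

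To ask whether tamoxifen, or loss of Esr1 in the Nkx2-1 lineage, changed these genes, the 4 groups were compared in each class and in all kept cells together, by edgeR on UMIs summed per library. No member passed the test. In each of 5 contrasts, 0 of 39 comparisons of a member and a class passed an adjusted p of 0.05, by edgeR and by DESeq2 alike. Of the pairs of 8 members and 10 sums, the 9 classes and all kept cells, only these 39 passed the filter on low counts. The other pairs had no test, so a level given without a log2 difference is not a result of no change. The contrasts were tamoxifen against oil in wild-type mice (0% of all 81644 comparisons of genes called), the same in Esr1 cKO mice (0%), their interaction (0%), Esr1 cKO against wild-type under oil (0%) and Esr1 cKO against wild-type under tamoxifen (0.00122%, 1 comparison). Unadjusted p values under 0.05 numbered 2, 0, 2, 1 and 2 of the 39 by edgeR, against 2.98, 3.53, 4.74, 5.02 and 3.12% of comparisons over all genes. The smallest adjusted p of the members was 0.999, 0.948, 0.874, 0.824 and 0.849. The comparisons of each treatment within 1 genotype and of each genotype within 1 treatment share their groups, so the 5 are not independent.

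**Figure D4:**
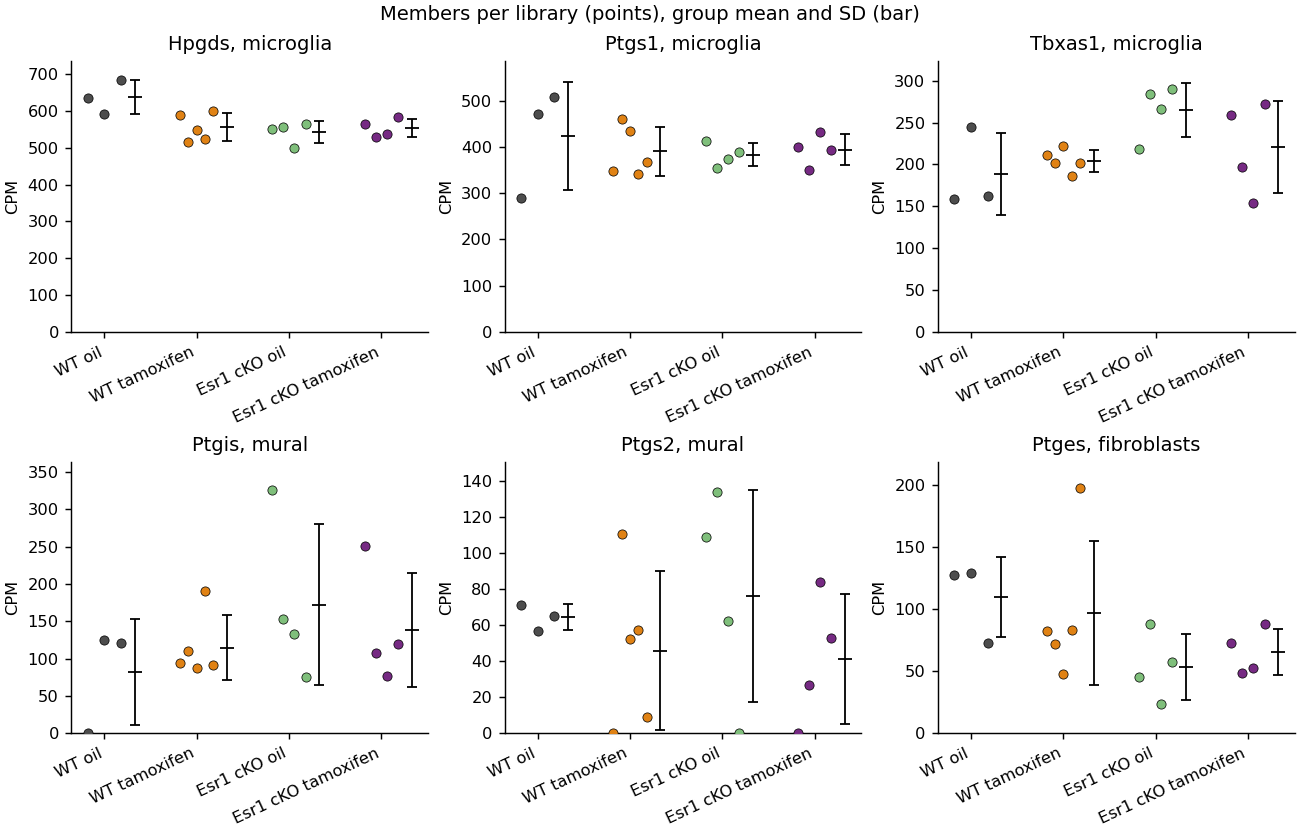
Levels in each library (points, CPM) by group with mean and SD for Hpgds, Ptgs1 and Tbxas1 in microglia, Ptgis and Ptgs2 in mural cells and Ptges in fibroblasts. Groups overlap in each panel, except that microglial Hpgds of the 3 wild-type oil libraries (593 to 685 CPM) lies above both Esr1 cKO groups (499 to 585 CPM). That difference did not pass the test, and how many genes separate in this way was not counted.

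Ptgds in oligodendrocytes measured 8741, 10159 and 10687 CPM in wild-type oil libraries, 10489, 6739, 12310, 11517 and 14095 CPM under wild-type tamoxifen, 6276, 6046, 11672 and 7280 CPM under Esr1 cKO oil and 8970, 9064, 9909 and 8338 CPM under Esr1 cKO tamoxifen. All 4 groups overlapped. The log2 difference between tamoxifen and oil was 0.17 ± 0.22 without and 0.20 ± 0.21 with the Esr1 knockout, and the interaction was 0.03 ± 0.30. In fibroblasts it measured 26580, 45770 and 84408, then 52969, 26120.5, 47763, 39474 and 48624, then 31332, 29885, 53013 and 43366, and then 9027, 47896, 45410 and 24343 CPM in the same order of groups. In Esr1 cKO oil replicate 1, 1 cell held 727 of the 1389 fibroblast Ptgds UMIs, and without it that library had 16055 CPM. The cell is kept in the means and differences that follow. The group means were 52253 ± 29454 (SD, n = 3), 42990 ± 10619 (n = 5), 39399 ± 10903 (n = 4) and 31669 ± 18425 CPM (n = 4), all overlapping, with log2 differences between tamoxifen and oil of -0.27 ± 0.44 and -0.35 ± 0.43. The share of Serpind1-led cells among a library's fibroblasts ran from 8.20 to 47.3%, as given above, and its part in the fibroblast level of a library was not tested.

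In all kept cells Ptgds measured 1750, 2278 and 2362 CPM in wild-type oil libraries, 2998, 1711, 2585, 2470 and 3033 CPM under wild-type tamoxifen, 1845, 2844, 2629 and 1971 CPM under Esr1 cKO oil and 1243, 1927, 2005 and 1927 CPM under Esr1 cKO tamoxifen. The groups overlapped, with Esr1 cKO tamoxifen lowest in its mean (1776 ± 357 CPM). Its log2 difference from wild-type tamoxifen was -0.48 ± 0.21, which did not pass (edgeR, adjusted p = 0.99998). Such a sum moves with the number of fibroblasts and oligodendrocytes as well as with Ptgds RNA per cell, which it cannot tell apart.

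The largest estimates for Ptgds were in classes where its level was not read as expression, and they moved with single cells. In neurons it measured 49.0, 119 and 62.5 CPM in wild-type oil libraries and 128, 75.5, 688, 164 and 146 CPM under wild-type tamoxifen, a log2 difference of 1.59 ± 0.59 that did not pass (edgeR, adjusted p = 0.9998). Under Esr1 cKO oil it measured 67.1, 42.6, 105 and 53.7 CPM and under Esr1 cKO tamoxifen 77.9, 19.0, 65.5 and 54.0 CPM, the latter with a log2 difference from wild-type tamoxifen of -2.001 ± 0.542 (edgeR, adjusted p = 0.849). In wild-type tamoxifen replicate 3, 1 cell held 692 of the 767 Ptgds UMIs, and without it that library had 67.7 CPM. Without this cell and another in Esr1 cKO tamoxifen replicate 1, the estimates were 0.56 ± 0.38 and -1.29 ± 0.36, neither of which passed. Wild-type tamoxifen (67.7 to 164 CPM) and Esr1 cKO tamoxifen (19.0 to 65.5 CPM) then no longer overlapped. How many genes separate in this way was not counted, so this is not read as a difference of genotype.

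In mural cells Ptgds measured 143, 79.5 and 65.0 CPM in wild-type oil libraries, 409, 73.7, 436, 210 and 99.7 CPM under wild-type tamoxifen, 0, 57.6, 534 and 164 CPM under Esr1 cKO oil and 91.0, 0, 383 and 86.1 CPM under Esr1 cKO tamoxifen, from 0 to 100 UMIs per library. The groups overlapped, and the log2 differences were 1.69 ± 0.78 for tamoxifen in wild-type mice, -2.30 ± 1.001 for the interaction and 1.76 ± 0.82 for Esr1 cKO against wild-type under oil (edgeR, adjusted p = 0.9997, 0.9999 and 0.9995). Without wild-type oil replicate 3 and the corresponding Esr1 cKO tamoxifen library, those apart on the principal component, they were 1.505, -3.37 and 1.60 (adjusted p = 0.998, 0.0954 and 0.992), and with both kept but given a model term they were 2.63, -4.09 and 2.74 and passed (adjusted p = 0.0268, 0.00908 and 0.0365). Without 3 cells that each held over 50% of their library's mural Ptgds UMIs, the estimates with that model term were 1.24, -2.13 and 1.30 and did not pass (adjusted p = 0.997, 0.999 and 0.982).

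**Figure D5:**
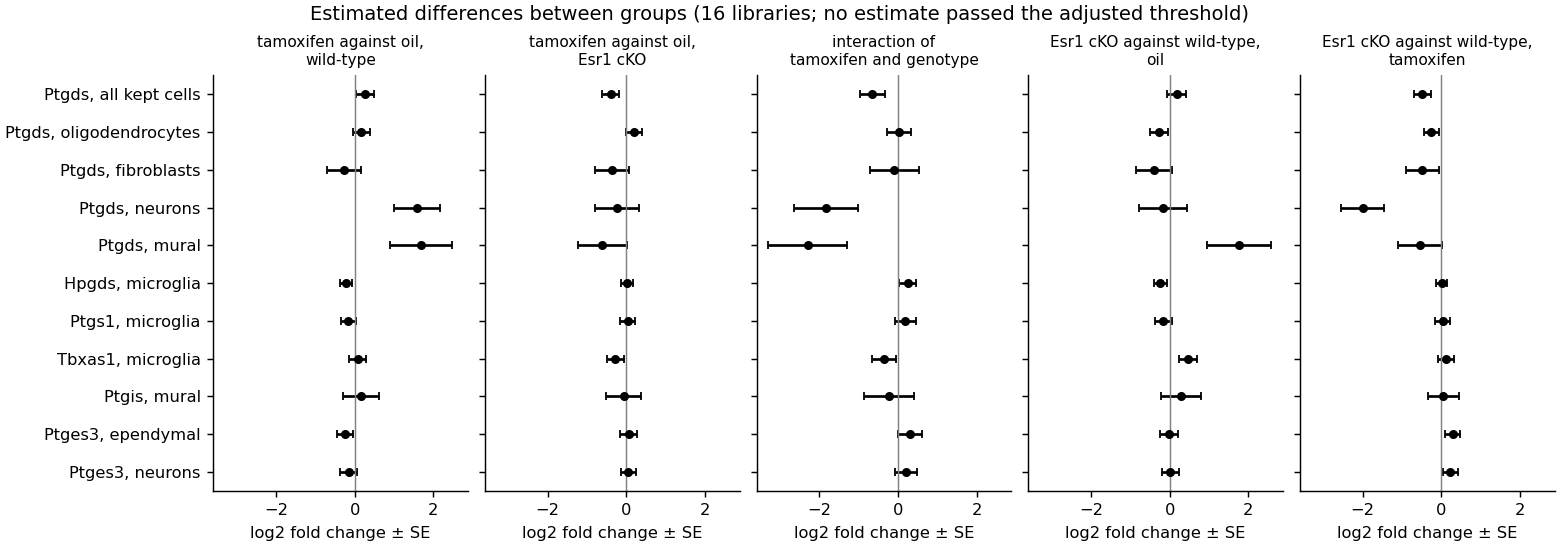
Log2 differences with SE (edgeR) of 11 pairs of a member and a class in the 5 contrasts of groups. Ptgds in mural cells and neurons has the largest estimates and wide errors, and no estimate passed an adjusted p of 0.05.

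The microglial members were counted more deeply. Hpgds measured 636, 593 and 685 CPM in wild-type oil libraries, 590, 515, 549, 525 and 601 CPM under wild-type tamoxifen, 551, 556, 499 and 565 CPM under Esr1 cKO oil and 565, 529, 538 and 585 CPM under Esr1 cKO tamoxifen. The 3 wild-type oil values lay above both Esr1 cKO groups and overlapped the wild-type tamoxifen group. How many genes separate groups this small in the same way was not counted, so this is not read as a difference of genotype. The log2 differences were -0.23 ± 0.16 for tamoxifen and -0.23 ± 0.17 for Esr1 cKO under oil, neither of which passed. Ptgs1 measured 290, 471 and 508, then 348, 460, 435, 342 and 367, then 414, 354, 374 and 390, and then 400, 351, 433 and 392 CPM in the same order of groups, all overlapping, with log2 differences between -0.16 and 0.19 and SEs from 0.18 to 0.28.

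Microglial Tbxas1 measured 159, 245 and 162 CPM in wild-type oil libraries, 211, 202, 222, 186 and 202 CPM under wild-type tamoxifen, 219, 284, 266 and 290 CPM under Esr1 cKO oil and 259, 196, 154 and 272 CPM under Esr1 cKO tamoxifen. Esr1 cKO oil and wild-type oil overlapped through a single library, and the log2 difference was 0.47 ± 0.23 (edgeR, adjusted p = 0.824). Replicate 3 of wild-type oil and replicate 3 of Esr1 cKO tamoxifen, apart on the principal component, had 162 and 154 CPM.

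The vascular members were counted in few UMIs. Mural Ptgis measured 0, 125 and 121, then 94.5, 111, 87.3, 191 and 90.7, then 327, 153, 133 and 75.8, and then 250, 107, 76.6 and 119 CPM in the order of groups above, on 0 to 40 UMIs per library, and all groups overlapped. Mural Ptgs2 measured 71.5, 56.8 and 65.04, then 0, 111, 52.4, 57.2 and 9.07, then 109, 134, 62.3 and 0, and then 0, 26.8, 84.3 and 53.01 CPM. Fibroblast Ptgis measured 76.8, 209.9 and 48.3, then 306, 57.8, 95.96, 167 and 176, then 90.2, 101, 93.5 and 96.2, and then 73.00, 195, 105 and 159 CPM, with log2 differences between tamoxifen and oil of 0.41 ± 0.51 without and 0.42 ± 0.50 with the knockout. Both overlapped between all groups. Fibroblast Ptges had means of 110 ± 32.4 (SD, n = 3), 96.7 ± 58.2 (n = 5), 53.5 ± 26.9 (n = 4) and 65.6 ± 18.4 CPM (n = 4) on 1 to 13 UMIs per library. Endothelial Ptgs2 measured 29.8, 25.1 and 4.16, then 3.55, 6.69, 27.0, 20.8 and 11.02, then 7.52, 31.3, 30.3 and 14.7, and then 29.8, 93.3, 19.4 and 16.2 CPM. Its highest estimate, Esr1 cKO against wild-type under tamoxifen, was 1.15 ± 0.55 on the log2 scale (edgeR, adjusted p = 0.99999), with 35 of its UMIs in Esr1 cKO tamoxifen replicate 2.

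Ependymal Ptges3, by contrast, was counted in 25 to 372 UMIs per library. It measured 323, 445 and 539 CPM in wild-type oil libraries, 305, 283, 382, 485 and 391 CPM under wild-type tamoxifen, 508, 411, 448 and 391 CPM under Esr1 cKO oil and 414, 431, 520 and 447 CPM under Esr1 cKO tamoxifen. The groups overlapped, and tamoxifen differed from oil by -0.24 ± 0.21 in wild-type mice and by 0.06 ± 0.21 in Esr1 cKO on the log2 scale (edgeR). Over all 39 comparisons the median log2 difference of the members was -0.04, -0.06, 0.00, -0.01 and -0.03 in the 5 contrasts.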

How the data were processed

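The authors deposited, for each of 16 mice, tables of UMI counts by gene symbol and barcode, as whole numbers without normalization or pooling. Per the submitters' processing notes, reads were aligned with STAR 2.6 to mm10. Barcodes with 200 to 4000 genes and under 15% mitochondrial UMIs were kept, 1717573 UMIs in the shallowest library. Scrublet (scanpy 1.11.5) called 699 of the kept cells doublets (1.26%), which stayed in the main sums and were removed in an alternative. Cells were clustered with Seurat 5.3.0 (R 4.3.3) and named from marker lists. The members and gene lists were chosen with earlier results of these data known. UMIs were summed per library and class (at least 10 cells; subtypes 5) and tested with edgeR 4.0.16 (TMM, filterByExpr, quasi-likelihood), with Benjamini-Hochberg adjustment within a class over all genes. Group contrasts used all 4 groups, and class and subtype tests had the library as a block. Levels are CPM of the class total, which are not compared between genes. Neighbouring classes, in the order of their medians in these same data, were compared by exact two-sided sign-flip tests of the mean within-library difference. The smallest p of these tests is 3.05e-05. The floor for a count of 0 was 3 counts, and folds against it leave out the counting error of the higher level. Named genes were all 8 members wherever tested, and related genes by counts with the highest class of each. Alternatives included DESeq2 1.42.0, no filter, other cell filters and each library left out, and some, such as the treatment of the libraries that stood apart, were chosen after seeing the data.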

Additional observations from a re-analysis of the deposited data

Results flagged for a closer look

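Of 78 groups of 4 or 5 libraries checked, 7 held a library whose gap to its nearest neighbour passed Dixon's 95% critical value. Chance gives 5% for normally distributed values, but groups with few UMIs or values of 0 need not keep to it, so the 7 are not weighed against that share. Ptgds in all kept cells was 1243 CPM in Esr1 cKO tamoxifen replicate 1, against 1927 to 2005 CPM in the other 3, and Ptgds in neurons was 688 CPM in wild-type tamoxifen replicate 3, against 75.5 to 164 CPM in the other 4. Ptgs2 in all kept cells was 23.7 CPM (42 UMIs) in Esr1 cKO tamoxifen replicate 2, against 6.25 to 7.45 CPM, and Ptgs2 in fibroblasts was 61.8 CPM (7 UMIs) in Esr1 cKO tamoxifen replicate 4, against 0 in the others. Ptges in fibroblasts was 198 CPM (9 UMIs) in wild-type tamoxifen replicate 5, against 48.0 to 83.3 CPM, and Ptgis in mural cells was 191 CPM (40 UMIs) in wild-type tamoxifen replicate 4, against 87.3 to 111 CPM. Hpgds in ependymal cells was 15.2 CPM (4 UMIs) in Esr1 cKO oil replicate 4, against 0 to 2.08 CPM.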

How the results depend on the processing

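No paired analysis was possible because the labels give no replicate numbers that groups share. The mice were prepared on 4 days, 4 mice a day, and the labels do not name the day of a library. With successive fours of library numbers as a model term in its place, 0 members were called in each contrast of groups, and 0, 0, 0, 0 and 1 comparisons over all genes (edgeR). The number of members called in the group contrasts was 0 under each alternative, leaving out each library included (0 to 0), except that a model term for the libraries apart on the principal component called 1, Ptgds in mural cells, in each of 3 contrasts, wild-type tamoxifen against oil, the interaction and Esr1 cKO against wild-type under oil. Members called by cell type numbered 53 (52 to 56 with a library left out) and by subtype 5 (4 to 6 with a library left out), or 13 of 40 without the filter on low counts. Among 1739 pairs of a named value and an alternative, 1719 kept their direction and their side of the threshold, 17 lost the threshold, 3 gained it and 0 changed sign. Of the 17, 16 were with the 3 wild-type oil libraries alone, where 38 of 59 class comparisons were called. Thinned to 500 UMIs, the share of cells with a UMI was 76.4% for Ptgds in oligodendrocytes, 16.3% for Ptgs1, 22.9% for Hpgds and 9.81% for Tbxas1 in microglia, 1.27% for Ptgs2, 4.09% for Ptges and 4.23% for Ptgis in fibroblasts and 19.1% for Ptges3 in ependymal cells. Over all genes, calls in the 5 contrasts, in the order of the report, were 0, 0, 0, 0 and 1, against 61, 79, 138, 58 and 74 without the filter on low counts, 11, 4, 16, 8 and 9 with that model term, and 1, 0, 1, 3 and 3 by DESeq2. Ptgs2, Ptges and Ptgis had the fewest UMIs, 412, 560 and 872 in all, and so the largest counting error.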

Other observations

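Of 22 genes listed that supply, clear, carry or sense prostaglandins, 21 were found. Pla2g4a, the phospholipase that releases arachidonic acid, had its highest median in fibroblasts (88.4 CPM, 24.3 to 247), with microglia next at 73.6 CPM. Hpgd, which oxidizes prostaglandins, was highest in microglia (160 CPM, 56.1 to 231), where Hpgds and Ptgs1 were also highest, and the next class had 8.56 CPM. Abcc4, an exporter of prostaglandins, was highest in endothelial cells (138 CPM, 87.3 to 205), and Cbr1, a carbonyl reductase that acts on prostaglandin E2, in neurons (117 CPM, 85.0 to 142). Each of these 4 genes was higher in the class named than in all other cells by edgeR.

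Receptors were sparse. Ptger4, a receptor of prostaglandin E2, had medians of 47.7 CPM in microglia (14.7 to 89.5) and 23.8 CPM in neurons, and Ptger3 of 23.8 CPM in microglia (7.52 to 58.7) and 14.2 CPM in neurons. Both were higher in neurons than in all other cells by edgeR, and Ptger4 also in microglia. Ptger3 had no test in microglia, where its median was highest. Tbxa2r, the thromboxane receptor, had 47.9 CPM in mural cells (0 to 116), where it had no test. In endothelial cells it had 24.0 CPM and was higher than in all other cells. Ptgdr, a receptor of prostaglandin D2, had 46.4 CPM in fibroblasts (0 to 76.9) on 50 UMIs, and Ptgir, the prostacyclin receptor, 26.6 CPM in mural cells (0 to 218) on 36 UMIs.

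None of these genes passed an adjusted p of 0.05 in the contrasts of groups, over 64 comparisons in each (edgeR and DESeq2). At an unadjusted p under 0.05 by edgeR were 4, 2, 3, 0 and 3 comparisons, against 2.98, 3.53, 4.74, 5.02 and 3.12% over all genes. An example is Hpgd in microglia of Esr1 cKO mice, where its level under tamoxifen differed from that under oil by -0.89 ± 0.25 on the log2 scale (edgeR, adjusted p = 0.813).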
